A study of Mus musculus with 12 samples.

Results

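Genes named as voltage-gated sodium channels, voltage-gated calcium channels or potassium channels were followed in the pituitary glands of 12 adult female mice. The members were all array genes whose name starts with Kcn, Cacna, Cacnb, Cacng or Scn and goes on with a number or a subunit letter, and Scn7a, which encodes a sodium sensor, was left out. This rule took 134 of the 30121 genes on the array, which were read by 206 probes on 242 spots. The rule uses names only, so it also holds Kcnq1ot1, a non-coding transcript, and Kcnrg, a regulator of potassium channel assembly. Scn2a1 is the array's older name for Scn2a.

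All mice were females of the inbred C57BL/6J strain, and the glands were taken at 2 months of age. The 4 control mice ate a normal diet, the 4 early life mice lacked dietary vitamin D in early life alone, and the 4 peripubertal mice lacked it around puberty alone. Labelled RNA of 2 mice of the same group was hybridised to each of 6 Agilent arrays, the odd-numbered mouse in Cy3 and the even-numbered in Cy5. Levels are log2 spot brightness after background correction and scaling, and they can be compared between mice for a probe but not between probes.

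A membrane channel protein lets ions cross when it opens. Voltage-gated sodium and calcium channels open when a cell depolarises, and most potassium channels bring the voltage back down or hold it low. Hormone cells of the anterior pituitary fire spontaneous action potentials, and the calcium that enters through their channels drives hormone release. Somatotrophs and lactotrophs are known for long bursts shaped by large-conductance calcium-activated potassium channels, while dopamine and somatostatin quiet hormone cells through inwardly rectifying potassium channels.

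Some facts about the arrays bear on every value below. Both control arrays lay on slide 1 and all arrays of deficient mice on slide 2, so a difference from control cannot be told apart from a difference between slides, whereas early life and peripubertal mice shared a slide. The authors' value table files the 8 deficient channels the other way round, with each early life scan under peripubertal and the reverse, and the names used here are those of the scanner files. If the table is right, the sign of every early life against peripubertal difference turns, and each difference from control belongs to the other group. Control 3 stood apart for several channel genes, and values without it are given beside several results. Whole minced glands were measured, so fewer cells of a type and less RNA per cell cannot be told apart. All 12 markers of anterior pituitary cells were detected, as were all 3 of the intermediate lobe and all 5 of the posterior lobe.

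The probes on which the comparisons turn are shown by their opening 30 of 60 bases, 5′ to 3′, with positions in mouse build mm9 as the files give them. Exon and UTR annotation of that build was not used here. Kcne2, Scn11a and Kcnj8 are each read by 1 probe. The pairs for Cacna1g and Kcnq1 are shown because both probes gave like values, and the pair for Kcnip4 because they did not. Of the trio for Kcnd1 only the first was detected. Both Kcnq1 probes overlap, so they are not independent readings. The first Kcnip4 probe covers 5108 bases of the genome and therefore crosses an intron.
Kcne2, chr16:92298236-92298295, plus strand: gtaagtatccttaccacaaaacagtagcta
Kcnq1, chr7:150612887-150612946, plus strand: aatttcgtagtatgatcttgattgagagac
Kcnq1, chr7:150612896-150612955, plus strand: gtatgatcttgattgagagacttttccaaa
Cacna1g, chr11:94270459-94270518, minus strand: aagaaagatgcgctgagtctctctggtttg
Cacna1g, chr11:94269863-94269922, minus strand: catcttcaacggaaagcgagaaccattttg
Scn11a, chr9:119662887-119662946, minus strand: gtcagcaccccaactttcagaagctctgat
Kcnj8, chr6:142513487-142513546, minus strand: cacgggtcatcatgaatatgttcaaatcta
Kcnip4, chr5:48782161-48787268, minus strand: tgagttcattgaaagttgccaaaaagatga
Kcnip4, chr5:48780889-48780948, minus strand: tttacgactgtctgcaacaataaatcaggt
Kcnd1, chrX:7413570-7413629, plus strand: aactccagcttgggtactccgtgcctcctc
Kcnd1, chrX:7400644-7400703, plus strand: tagaatcatctcagactttctagacctgag
Kcnd1, chrX:7415303-7415362, plus strand: accaatcttggattcagatcgacacatttt

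A gene was called detected when at least 1 of its probes was well above background, by the scanner software's mark, in 4 or more of the 12 array channels. By that rule 95 of the 134 channel genes (70.9%) were detected, against 63.4% of all genes on the array. In all 12 channels 63 of the 134 (47%) were well above background, against 49.6% of all genes. The others comprised 14 genes marked in 1 to 3 channels and 25 marked in none. Kcna1, Kcnh5 and Kcnj13 lay just inside the limit with 4 channels, and Cacna1c, Cacna2d4 and Kcnrg just outside it with 3. A dim probe shows little about its gene, since 26 of the 56 genes with several probes had both detected and undetected ones among those called detected.

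**Figure D1:**
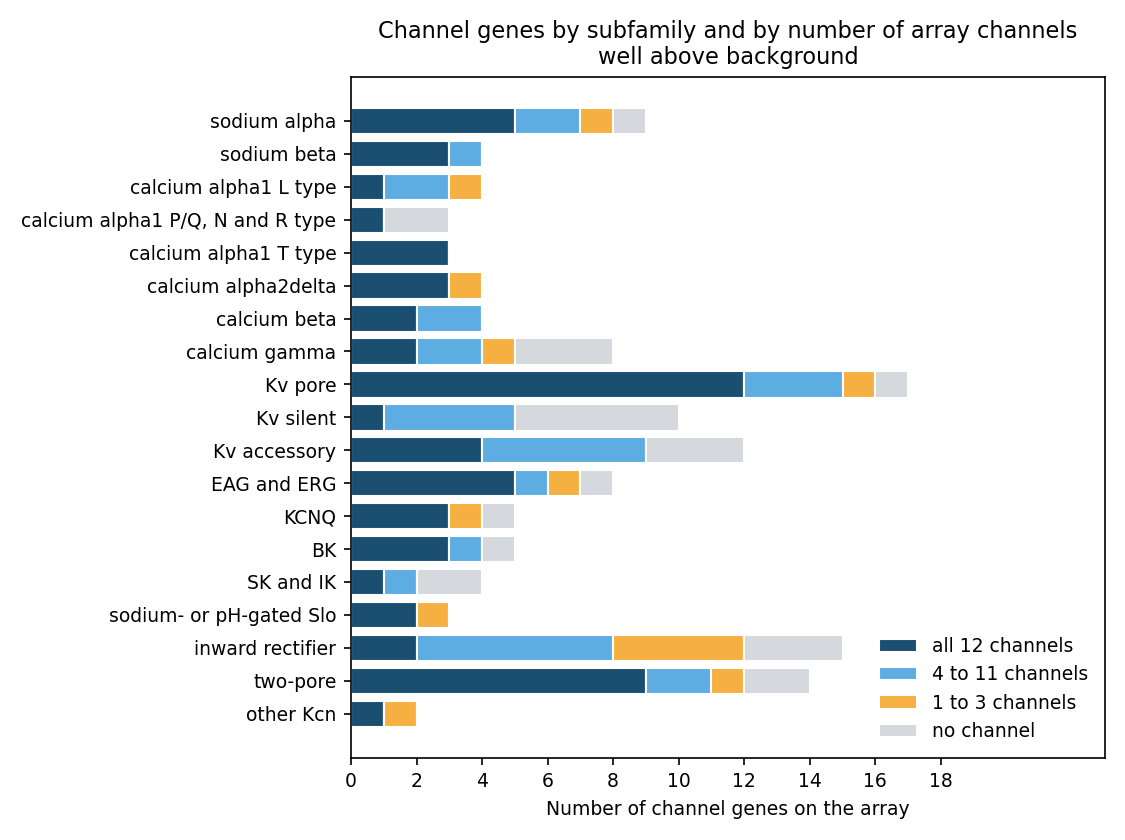
Stacked bars give the number of channel genes in each subfamily (horizontal axis) that were well above background in all 12, in 4 to 11, in 1 to 3 or in no array channels. All 3 T-type calcium channels and 12 of 17 Kv pore subunits reached 12 channels, while 2 of 15 inward rectifiers and 1 of 10 silent Kv subunits did.

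The pore-forming sodium channel subunits Scn2a1, Scn3a, Scn4a and Scn8a were read in all 12 channels, Scn11a in 11 and Scn10a in 9. Scn1a was marked in 2 control channels and Scn9a in none. All 4 beta subunits, which steer sodium channel gating and placement, were detected. Among pore subunits of calcium channels, all T-type genes (Cacna1g, Cacna1h and Cacna1i) and Cacna1a, the P/Q-type pore, were read in every channel. Of the L-type pores Cacna1d was read in 12, Cacna1f in 10 and Cacna1s in 9 channels, and the single probe of Cacna1c in 3. The N-type Cacna1b and the R-type Cacna1e were not well above background in any channel. Accessory calcium channel subunits were detected in 3 of 4 alpha2delta genes, 4 of 4 beta genes and 4 of 8 gamma genes.

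Of the 17 Kv pore genes 15 were detected, and Kcna10 and Kcnb2 were not. The Kv accessory group, which holds beta subunits, KChIP proteins and single-span KCNE proteins, had 9 of 12 detected. Silent Kv subunits, which form no channel of their own, had 5 of 10. Among the ether-a-go-go family 6 of 8 were detected, with Kcnh2 (the ERG1 channel) in 12 channels and its relatives Kcnh6 and Kcnh7 in 1 and 0. The pore of the large-conductance channel, Kcnma1, and its beta subunits Kcnmb2 and Kcnmb4 were read in all 12 channels. Of the small- and intermediate-conductance genes Kcnn2 was read in 12 channels and Kcnn3 in 11, and Kcnn1 and Kcnn4 in none. Inward rectifiers had 8 of 15 detected, among them Kcnj3 and Kcnj6, G-protein-gated pore subunits, while Kcnj5 and Kcnj9 of the same kind were not. Two-pore channels, which carry background current, had 11 of 14 detected, and Kcnk5, Kcnk7 and Kcnk18 were not.

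The number of channel genes well above background was lowest in early life mice 1 and 3. The counts of channel genes were 93, 85, 96 and 88 in controls 1 to 4, 72, 79, 69 and 85 in early life mice and 85, 100, 81 and 90 in peripubertal mice. Only the highest early life count reached the lowest control count, and the early life and peripubertal counts overlapped. Over all genes the share spanned 61.2% to 66.1% in control, 51.7% to 60.2% in early life and 58.6% to 67.1% in peripubertal mice. Spots marked as outliers made up 1.14% to 1.38%, 4.01% to 6.53% and 2.55% to 4.28% in the same order, and their part in these counts was not tested. Of the detected channel genes, 9 were well above background in no early life mouse on the probe used, 2 in no peripubertal mouse and 0 in no control mouse. Those 9 met the detection rule through the other groups alone. The same count over all genes is not given here, so it does not show a loss particular to channel genes.

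**Figure D2:**
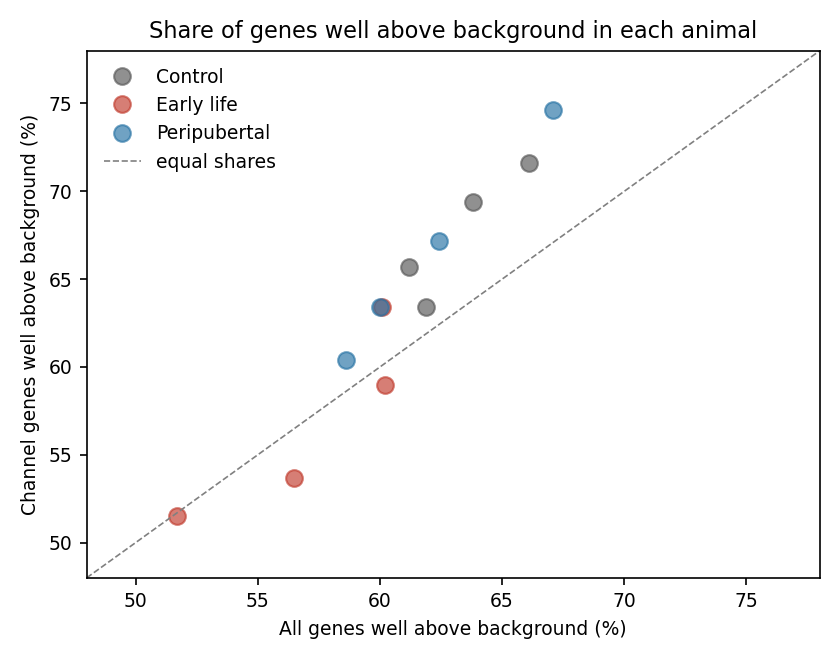
Each point is a mouse, with the percentage of all genes well above background on the horizontal axis and the percentage of the 134 channel genes on the vertical axis. The lowest point is early life 3 at 51.7% and 51.5%, and the dashed line marks equal shares.

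No channel gene differed between diet groups past an adjusted p of 0.05, in limma with Benjamini-Hochberg adjustment over all genes tested. For early life against control, 0 of 95 passed, where 0.0979% of all genes did. An unadjusted p under 0.05 was reached by 23 channel genes (24.2%), 13 of them higher and 10 lower in early life, against 8.66% higher and 7.5% lower among all genes. For peripubertal against control, 0 of 95 passed, where 0.0213% of all genes did, and 6 reached an unadjusted p under 0.05. These were 2 higher and 4 lower, against 1.6% and 3.08% of all genes. For early life against peripubertal, 0 of 95 passed, where 0.132% of all genes did, and 32 (33.7%) reached an unadjusted p under 0.05. Of these 21 were higher and 11 lower in early life, against 10.6% and 8.77% of all genes. The 3 comparisons share samples pairwise, so these counts are not independent.

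The median log2 difference of the channel genes was 0.11 in early life mice and -0.08 in peripubertal mice relative to control, and 0.15 in early life relative to peripubertal mice, beside 0.03, 0.01 and 0.03 for all genes. Single mice moved these medians. Without early life 4 the first was 0.01 and without early life 1 it was 0.03, without control 3 the second was -0.01, and without early life 4 the third was 0.09. The counts of calls moved with 2 mice. Without control 3, 4 channel genes passed between early life and control and 3 between early life and peripubertal mice, and without early life 3, 3 and 12 passed. The 12 were Cacna1f, Cacna1g, Cacng5, Kcne2, Kcnh2, Kcnh5, Kcnj8, Kcnj10, Kcnj13, Kcnk12, Scn10a and Scn11a. When outlier spots were removed before arrays were scaled in place of after, 20, 0 and 4 passed, and the median of all genes itself moved to 0.31, 0.13 and 0.19. Calls over all genes in these settings are not set beside these counts. The counts therefore do not tell a trait of channel genes from a general rise in calls. Control 3 enters early life against peripubertal differences only through the estimate of spread that all groups share.

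**Figure D3:**
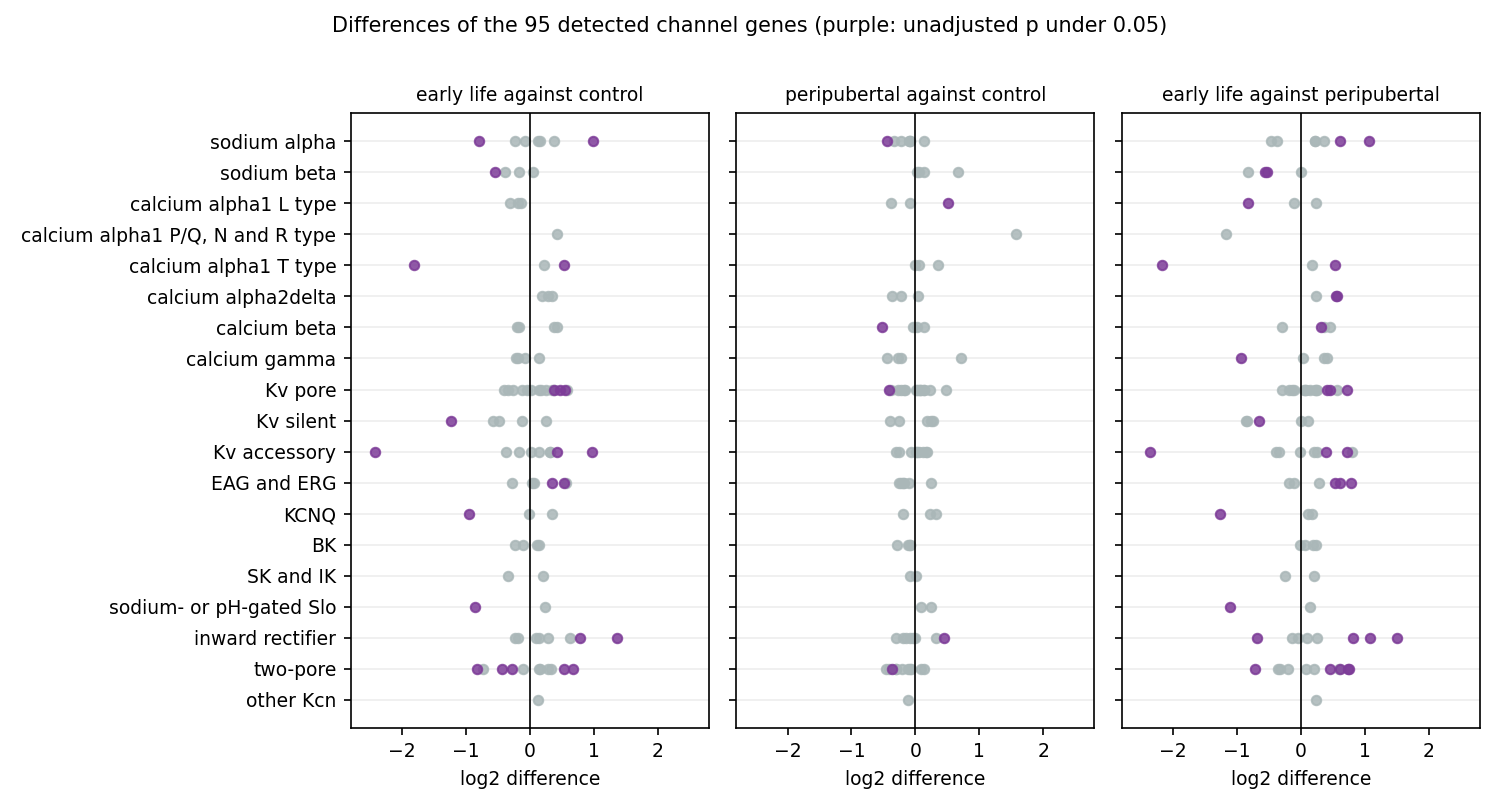
Each point is 1 of the 95 detected channel genes, placed by its log2 difference (horizontal axis) within its subfamily (rows) for the 3 comparisons, with unadjusted p under 0.05 in purple. Most points lie within 1 of 0, and the lowest points in both early life panels belong to Kcne2 (-2.43 and -2.36) and Cacna1g (-1.81 and -2.17).

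Among sodium channel genes the smallest p belonged to Scn11a, which encodes the persistent-current channel Nav1.9 known from pain-sensing neurons. Its level was 7.13, 7.39, 8.07 and 7.5 in controls 1 to 4, 8.24, 8.39, 8.88 and 8.54 in early life mice and 7.44, 7.42, 7.47 and 7.42 in peripubertal mice. Every early life mouse lay above all others, with control 3 closest. Early life differed from control by 0.99 (log2, SE 0.22, adjusted p = 0.133) and from peripubertal by 1.07 (SE 0.22, adjusted p = 0.0769) in the limma fit. Without control 3 both passed, and without early life 3 the second did. Over all alternative settings they passed in 3 of 25 and 6 of 26, with adjusted p up to 0.399 and 0.351 in limma.

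The sodium channels that carry most neuronal action potentials showed smaller differences. Scn2a1 averaged 8.99 ± 0.31 (log2, SD, n = 4) in control, 9.14 ± 0.34 in early life and 8.91 ± 0.38 in peripubertal mice. Scn3a, the Nav1.3 pore, averaged 10.49 ± 0.34 in control and 10.26 ± 0.15 in peripubertal mice and read 10.99 and 10.76 in the 2 early life mice with a value. All 3 of its detected probes differed by 0.61 to 0.64 between early life and peripubertal (adjusted p of the brightest 0.256, with 10 samples). Scn8a, the Nav1.6 pore, had values on 4 arrays only. They were 10.94 and 11.44 in controls 3 and 4, 9.88 and 10.91 in early life 3 and 4 and 10.74, 11, 10.74 and 10.94 in peripubertal mice (early life against control -0.79, SE 0.30, adjusted p = 0.265, 8 samples).

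The sodium channel beta subunit Scn3b was lower in early life than in both other groups at an unadjusted p under 0.05, and Scn4b was lower than in peripubertal mice. Scn3b read 9.28, 9.18, 8.96 and 9.69 in control, 8.52, 8.72, 8.97 and 8.74 in early life and 9.43, 9.41, 9.13 and 9.23 in peripubertal mice. The early life range met the control range at its edge and lay below the peripubertal one. The differences were -0.54 (SE 0.20, adjusted p = 0.242) and -0.56 (SE 0.20, adjusted p = 0.176). Scn4b averaged 7.16 ± 0.12 in early life, where no mouse was well above background, and 7.69 ± 0.25 in peripubertal mice, at least 1.24-fold higher there (adjusted p = 0.161). Its difference between early life and control was -0.39 (SE 0.18, adjusted p = 0.311).

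Among calcium channels the T-type pore Cacna1g (Cav3.1), which opens at low voltage, stood out. It read 11.30, 11.09, 9.93 and 11.06 in controls 1 to 4, 8.62, 8.38, 9.87 and 9.27 in early life mice and 11.18, 11.07, 11.08 and 11.49 in peripubertal mice. All early life mice lay below all others and early life 3 was close to control 3. Early life differed from control by -1.81 (log2, SE 0.41, adjusted p = 0.133) and from peripubertal by -2.17 (SE 0.41, adjusted p = 0.0607), that is 3.5-fold and 4.5-fold lower. Both comparisons passed without control 3, and both passed without early life 3. Over all alternative settings they passed in 4 of 26 and 6 of 27, with adjusted p up to 0.399 and 0.434 in limma. The second probe gave -1.77 (SE 0.60) and -2.07 (SE 0.60). Early life 1 and 2, the animals of 1 array, read lowest, and the 6 dim spots around this probe deviated there by -0.16 and 0.04.

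The other T-type pores went differently. Cacna1i (Cav3.3) read 10.34, 10.59, 10.94 and 10.25 in control, 10.96, 11, 11.03 and 11.29 in early life and 10.58, 10.36, 10.89 and 10.28 in peripubertal mice. Its early life values lay above all others by a narrow margin (0.54 in both comparisons, SE 0.23, adjusted p = 0.277 and 0.226). Cacna1h (Cav3.2) averaged 9.42 ± 0.26, 9.64 ± 0.15 and 9.47 ± 0.16 in control, early life and peripubertal mice. The L-type pore Cacna1d (Cav1.3), which supports pacemaking in endocrine cells, averaged 9.99 ± 0.33, 9.85 ± 0.21 and 9.61 ± 0.80, the last with peripubertal 1 at 8.41 and the other three between 9.95 and 10.10. Cacna1a read 5.88 in control 3 and 10.83 to 11.41 in the other controls, 9.47 to 11.07 in early life and 11.02 to 11.73 in peripubertal mice. The scanner software marked this Cacna1a probe well above background in control 3, where 5.88 was also the lowest level of any probe so marked. The second Cacna1a probe read 9.35 in control 3, so both probes do not tell the same about that mouse. Cacna1a differed by 0.42 between early life and control (adjusted p = 0.892) and by -0.88 without control 3 (SE 0.39, adjusted p = 0.254), so this mouse turned the sign. Between peripubertal and control the values were 1.58 and 0.29 (adjusted p = 1 in both).

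Cacna1f, the L-type channel Cav1.4 known from the retina, had 2 detected probes of opposite sign. The brighter gave 0.51 (SE 0.21, adjusted p = 1) for peripubertal against control and -0.82 (SE 0.21, adjusted p = 0.115) for early life against peripubertal, the other -0.31 and 0.45. On the brighter probe the level was 7.79, 7.79, 7.32 and 7.47 in control, 7.0, 7.41, 7.45 and 7.29 in early life and 8.12, 8.04, 7.76 and 8.51 in peripubertal mice. The gene therefore has no settled direction in these data.

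Of the accessory calcium channel genes, Cacnb4 had the smallest p of all members for peripubertal against control. This beta subunit read 7.82, 8.0, 8.06 and 8.19 in control, 7.86, 7.89, 7.54 and 7.99 in early life and 7.47, 7.41, 7.63 and 7.48 in peripubertal mice. Every peripubertal mouse lay below every control (-0.52, SE 0.15, adjusted p = 0.683). Cacnb3, the beta subunit paired with many neuronal and endocrine calcium channels, averaged 10.12 ± 0.14, 10.54 ± 0.44 and 10.10 ± 0.26 in control, early life and peripubertal mice, the early life mean raised by 11.19 in early life 1. Cacna2d1, an alpha2delta subunit that brings calcium channels to the surface, averaged 12.35 ± 0.43, 12.69 ± 0.32 and 12.13 ± 0.16. All early life values of Cacna2d1 lay above all peripubertal ones (0.56, SE 0.26, adjusted p = 0.254).

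Among potassium channels the lowest log2 difference was that of Kcne2, a single-span subunit that joins KCNQ1 and other pores and is best known from stomach, thyroid and choroid plexus. It read 9.26, 9.42, 7.70 and 9.86 in controls 1 to 4, 6.48, 6.76, 6.72 and 6.57 in early life mice and 8.77, 9.06, 8.07 and 10.08 in peripubertal mice. No early life mouse was well above background, against 3 of 4 controls and 4 of 4 peripubertal mice. The level was at least 3.25-fold higher in control than in early life (means 9.06 ± 0.94 and 6.63 ± 0.13, adjusted p = 0.104) and at least 3.10-fold higher in peripubertal mice (9.0 ± 0.84, adjusted p = 0.0838). Both passed without control 3 and also without early life 3. Over all alternative settings they passed in 5 of 25 and 5 of 26, with adjusted p up to 0.395 and 0.434 in limma. The 4 dim spots around it deviated by 0.09, -0.06 and -0.03 in control, early life and peripubertal mice.

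Kcnq1, the pore partner of KCNE2, was picked out after its values were seen. It read 10.33, 10.27, 8.67 and 9.48 in control, 8.31, 9.34, 8.6 and 8.67 in early life and 9.91, 9.87, 10.13 and 10.11 in peripubertal mice. Early life mice lay below all peripubertal mice and overlapped control, where control 3 was again low. Early life differed from control by -0.96 (log2, SE 0.36, adjusted p = 0.253) and from peripubertal by -1.27 (SE 0.36, adjusted p = 0.126). Without control 3 the first was -1.20 (SE 0.33, adjusted p = 0.0977).

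The Kv4 channels carry the fast transient A-current, and KChIP proteins bind them. Kcnd1 (Kv4.1) read 11.41, 11.71, 11.38 and 11.57 in control, 12.23, 12.41, 11.75 and 11.88 in early life and 11.61, 11.56, 11.71 and 11.57 in peripubertal mice. Early life mice lay above all others, early life 3 narrowly so. The differences were 0.55 (SE 0.16, adjusted p = 0.18) from control and 0.46 (SE 0.16, adjusted p = 0.178) from peripubertal mice. Its other 2 probes were well above background in 2 and 0 channels and gave no test. Kcnd2 (Kv4.2) read 10.41, 10.56, 10.40 and 10.30 in control, 10.88 and 10.90 in early life 3 and 4 and 10.44, 10.60, 10.27 and 10.60 in peripubertal mice (0.47, SE 0.16, adjusted p = 0.235 against control). Kcnd3 (Kv4.3) averaged 12.10 ± 0.30, 12.12 ± 0.23 and 11.87 ± 0.17.

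Of the KChIP genes, Kcnip4 read 10.34, 10.43, 10.47 and 10.49 in control, 10.65, 11.01, 11.02 and 10.75 in early life and 10.32, 10.33, 10.03 and 9.82 in peripubertal mice. Early life mice were above all others, and peripubertal mice were below all controls, but only narrowly (highest 10.33 against lowest 10.34). The difference was 0.73 (SE 0.17, adjusted p = 0.0928) for early life against peripubertal and 0.42 (SE 0.17, adjusted p = 0.258) for early life against control. The intron-crossing probe gave 0.24 (SE 0.28) and 0.16 (SE 0.28) for the same comparisons, so the pattern was seen on the other probe alone. Kcnip3, also known as the calcium-sensing repressor DREAM, read 12.80, 13.29, 13.89 and 12.91 in control, 14.32, 14.46, 13.83 and 14.17 in early life and 13.51 and 13.29 in peripubertal 3 and 4. Control 3 reached into the early life range (0.97, SE 0.32, adjusted p = 0.221, 10 samples), and without it Kcnip3 passed for early life against control.

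Among other Kv pores, Kcna4 (Kv1.4) read 10.98, 11.43, 11 and 11.27 in control, 10.35 and 11.28 in early life 3 and 4 and 10.61, 11.10, 10.45 and 10.86 in peripubertal mice. The peripubertal and control ranges overlapped (-0.41, SE 0.16, adjusted p = 1, 10 samples). Kcna5 (Kv1.5) averaged 9.16 ± 0.26, 9.03 ± 0.32 and 8.98 ± 0.56 in control, early life and peripubertal mice. Kcnv2, a silent subunit of photoreceptors, read 9.59 and 8.63 in controls 1 and 2 and 6.81 to 7.95 in the other 10 mice. Both high values came from 1 array. The only dim spot next to that probe deviated there by -0.31 and -0.11.

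ERG and EAG channels slow or brake firing in many endocrine cells. Kcnh2, the ERG1 channel of lactotrophs, read 9.07, 9.08, 9.52 and 8.99 in control, 10.04, 9.59, 9.27 and 9.98 in early life and 8.99, 8.88, 9.29 and 8.61 in peripubertal mice. The early life values were mostly above the rest but early life 3 overlapped them (0.78, SE 0.26, adjusted p = 0.164 against peripubertal). Kcnh5 (EAG2), detected in 4 channels only, read 7.20 to 7.73 in early life, 6.88 to 7.16 in control and 6.71 to 6.96 in peripubertal mice (0.54, SE 0.15, adjusted p = 0.118 against peripubertal). Kcnh1 (EAG1) averaged 7.58 ± 0.12, 7.64 ± 0.28 and 7.82 ± 0.16 in control, early life and peripubertal mice.

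The calcium-activated channels that shape pituitary bursting differed little. Kcnma1, the large-conductance pore, averaged 10.04 ± 0.39 in control, 10.15 ± 0.28 in early life and 9.95 ± 0.20 in peripubertal mice. Of its 3 detected probes, 1 gave -0.37 for early life against peripubertal where the brightest gave 0.19, and none passed. Kcnmb4, the brain-type beta subunit, averaged 12.60 ± 0.51 in control and read 12.25 and 12.50 in 2 early life and 12.38 and 12.25 in 2 peripubertal mice. Kcnmb2, the inactivating beta subunit, averaged 8.37 ± 0.30, 8.26 ± 0.32 and 8.27 ± 0.32. Kcnn2 (SK2) averaged 10.80 ± 0.28, 10.46 ± 0.15 and 10.71 ± 0.20, and Kcnn3 (SK3) 7.49 ± 0.05, 7.70 ± 0.32 and 7.5 ± 0.10. In the BK and SK groups 0 of 6 genes reached an unadjusted p under 0.05 in any of the 3 comparisons, and all adjusted p-values were above 0.05 in limma. Kcnt1, the sodium-activated Slack channel, averaged 10.32 ± 0.38 in control, 9.46 ± 0.40 in early life and 10.56 ± 0.17 in peripubertal mice. All early life values of Kcnt1 (9.11 to 10.03) lay below the peripubertal ones (-1.11, SE 0.29, adjusted p = 0.115).

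The inward rectifiers held Kcnj8 (Kir6.1), the pore of the vascular ATP-sensitive channel. It read 7.77, 7.59, 7.70 and 8.0 in control, 7.48, 7.68, 7.40 and 7.56 in early life and 8.21, 8.01, 8.29 and 8.37 in peripubertal mice. The peripubertal mice were above all others, narrowly so above control 4. The difference was -0.69 (SE 0.15, adjusted p = 0.086) for early life against peripubertal and 0.45 (SE 0.15, adjusted p = 0.833) for peripubertal against control. Abcc9, which encodes the SUR2 subunit that pairs with Kir6.1 in vessels, differed by -0.59 (SE 0.14, adjusted p = 0.0952) and 0.38 (SE 0.14, adjusted p = 0.932). Markers of pericytes and smooth muscle, which carry this channel, were detected in 3 of 4 (Myh11 was not), and the summed level of Acta2 and Pdgfrb, the 2 with a value in every mouse, spanned 10.89 to 11.53 in control, 10.89 to 11.90 in early life and 11.02 to 11.32 in peripubertal mice. Their part in the Kcnj8 values was not tested.

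Kcnj11 (Kir6.2), the pore of the endocrine ATP-sensitive channel, averaged 7.32 ± 0.24, 7.47 ± 0.22 and 7.23 ± 0.08 in control, early life and peripubertal mice. Abcc8, its SUR1 partner, differed by 0.59 (SE 0.19, adjusted p = 0.198) for early life against control and 0.68 (SE 0.19, adjusted p = 0.119) for early life against peripubertal. Kcnj3 (GIRK1), through which dopamine and somatostatin act, averaged 7.69 ± 0.10, 7.98 ± 0.46 and 8.02 ± 0.27, and Kcnj6 (GIRK2) 7.30 ± 0.10, 7.39 ± 0.11 and 7.30 ± 0.14.

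Some inward rectifiers were high on a single array. Kcnj13 (Kir7.1), an epithelial channel, read 9.80 and 8.99 in early life 1 and 2, which shared an array, and 6.69 to 7.61 in the other 10 mice. Kcnj4 (Kir2.3) read 9.04 and 8.35 in early life 3 and 4, on the other early life array, and 6.87 to 7.46 in the other 10. The 10 dim spots around each deviated there by -0.03 and 0.11 for Kcnj13 and by -0.14 and 0.23 for Kcnj4. In early life against peripubertal the levels were 2.68-fold higher for Kcnj13 (means 8.27 ± 1.39 and 6.78 ± 0.07, adjusted p = 0.188) and 2.10-fold higher for Kcnj4 (8.06 ± 0.78 and 6.97 ± 0.07, adjusted p = 0.133), with dim samples raised to the floor of their channel. The floors in peripubertal 1, 2 and 4 (5.69, 6.16 and 5.88) lay below the measured levels. These folds are thus near the measured ones, and each rests mostly on 1 early life array. The same form was seen in Cacng2, a gamma subunit, at 9.32 and 8.40 in peripubertal 1 and 2 and 6.96 to 7.57 elsewhere, and in Cacnb1, at 8.09 and 7.87 in early life 3 and 4 and 7.0 to 7.34 elsewhere.

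Two-pore channels set the resting voltage, and Kcnk12 (THIK-2) was among the smallest p for early life against control. It read 9.85, 9.78, 9.43 and 9.70 in control, 8.49, 8.48, 9.57 and 8.90 in early life and 9.45, 9.55, 9.58 and 9.70 in peripubertal mice. Early life 3 lay among the others and the remaining early life mice below them (-0.83, SE 0.25, adjusted p = 0.181). Without early life 3 it passed, the only 1 of 26 alternative settings in which it did. Kcnk9 (TASK-3), an acid-sensitive channel, read 7.64, 7.64, 7.51 and 7.54 in control, 7.24, 7.28, 7.26 and 7.41 in early life and 7.45, 7.31, 7.03 and 7.07 in peripubertal mice. Both deficient groups lay below all controls (-0.28, SE 0.13, adjusted p = 0.307, and -0.37, SE 0.13, adjusted p = 0.922), with the same control mice in both differences. Kcnk9 was dim, well above background in 4 control, 1 early life and 2 peripubertal mice, and both deficient groups lay on slide 2.

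Other two-pore members were higher in early life at an unadjusted p under 0.05. Kcnk6 (TWIK-2) read 9.51 to 10.07 in control, 10.13 to 10.68 in early life and 9.35 to 9.77 in peripubertal mice (0.53, adjusted p = 0.288, and 0.74, adjusted p = 0.143). Kcnk1 (TWIK-1) read 12.49 and 12.41 in early life 1 and 2, with no value in the other two, 11.32 to 11.93 in control and 11.25 to 12.29 in peripubertal mice. The stretch- and lipid-gated Kcnk2 (TREK-1) averaged 9.30 ± 0.20, 9.63 ± 0.10 and 9.43 ± 0.18, and the acid-sensitive Kcnk3 (TASK-1) 9.13 ± 0.47, 9.42 ± 0.16 and 8.83 ± 0.33, in control, early life and peripubertal mice, neither below an unadjusted p of 0.05 in any comparison.

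**Figure D4:**
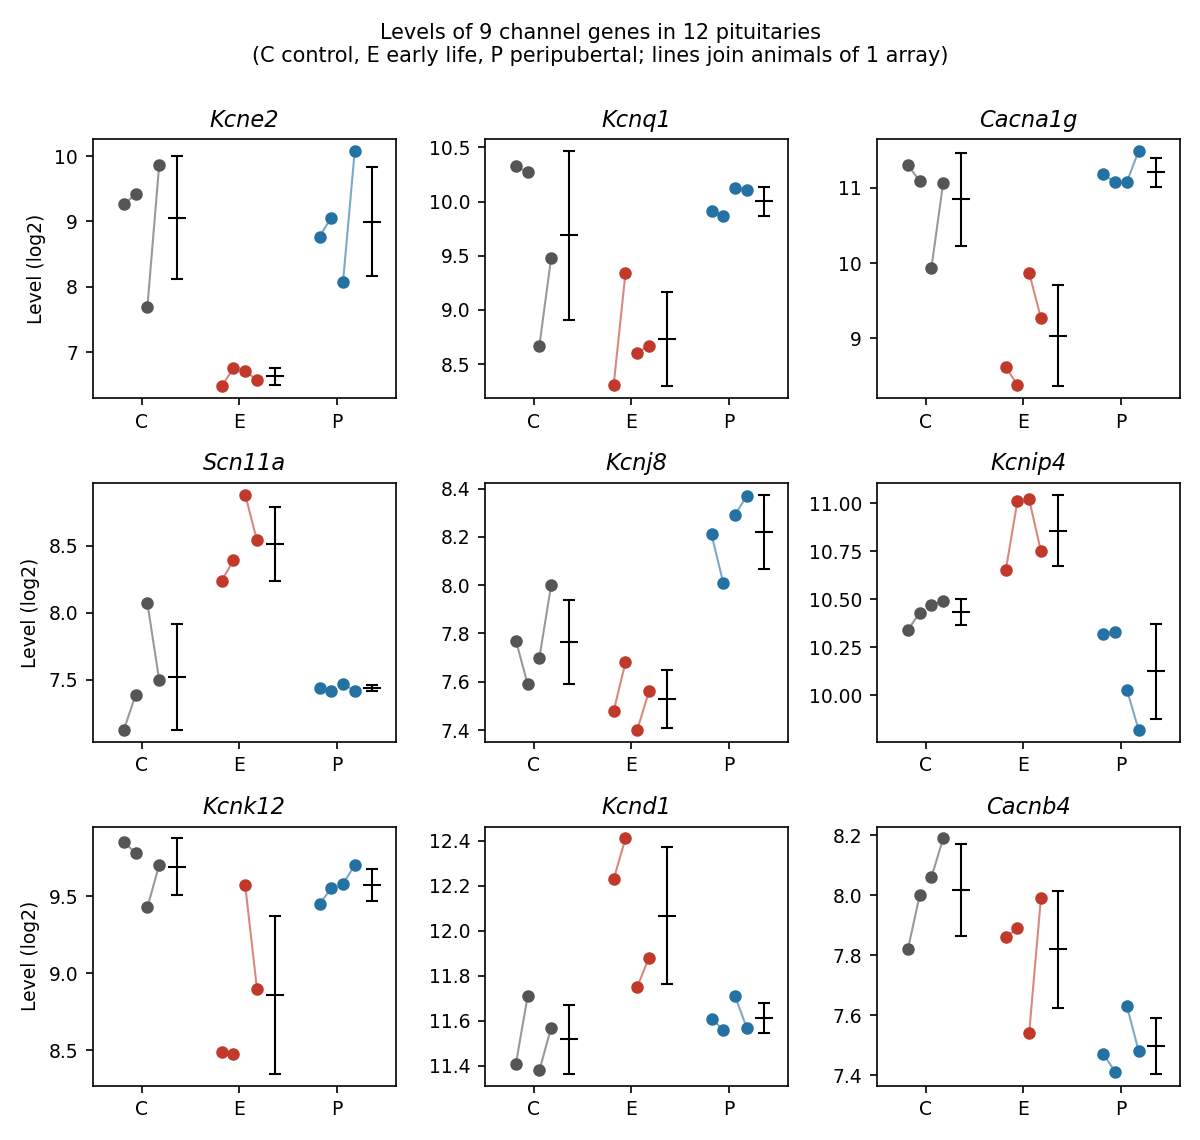
Points give the log2 level (vertical axis) of 9 channel genes in each mouse by group (C control, E early life, P peripubertal), lines join mice of 1 array, and the black mark and bar are the group mean and SD. Early life values of Kcne2 (6.48 to 6.76) lie below the 8 other mice, and control 3 is the lowest control in Kcne2 (7.70), Kcnq1 (8.67) and Cacna1g (9.93).

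A list of 47 channels known from work on pituitary and other excitable endocrine cells overlapped the detected set in 37 genes. No gene of this list passed in any comparison by limma, and those with an unadjusted p under 0.05 are among the genes given above.

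**Figure D5:**
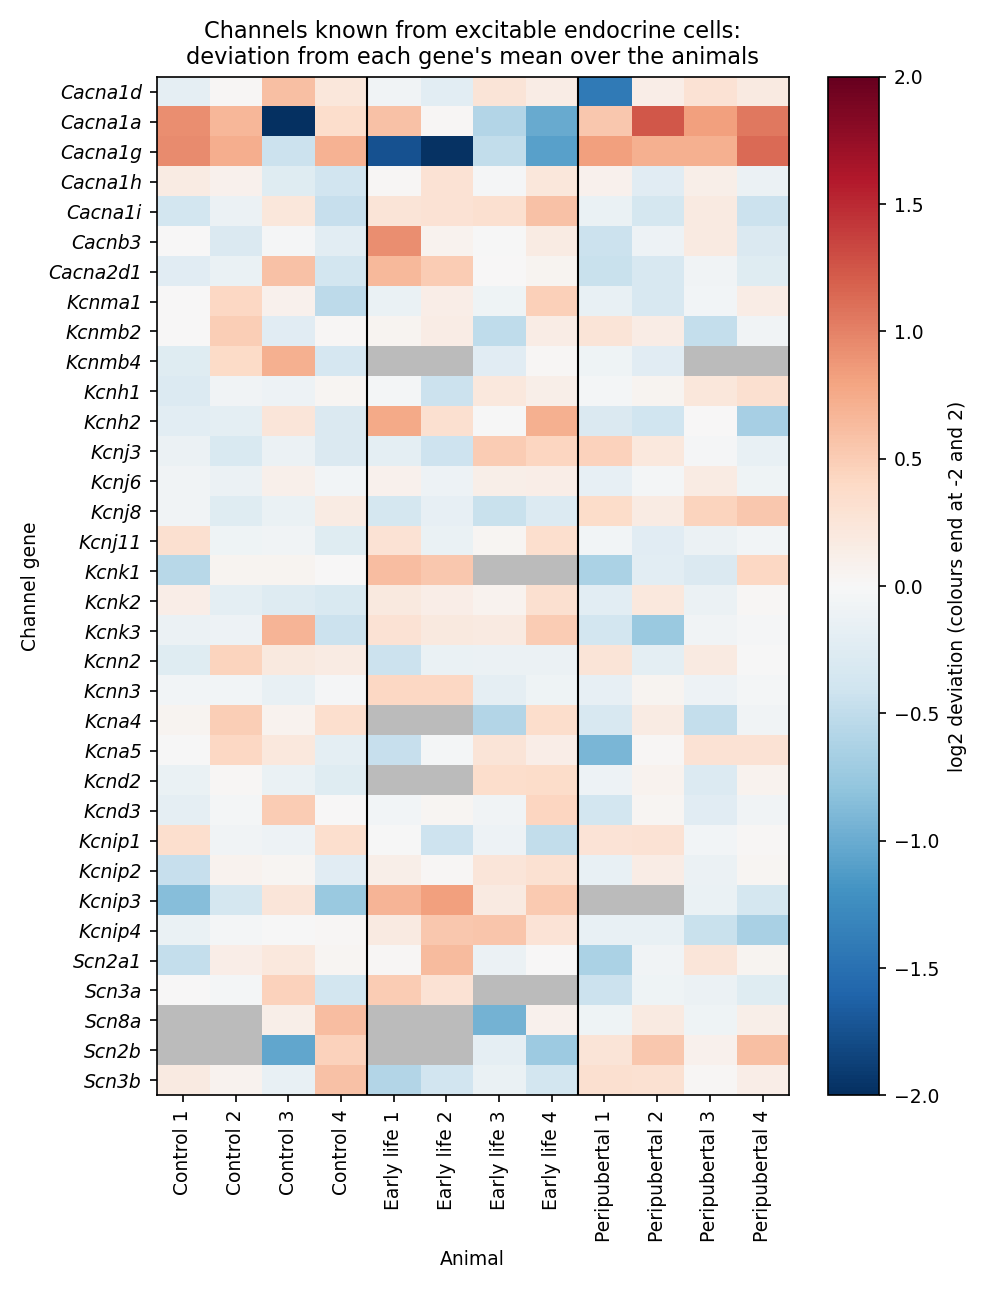
Colour gives the deviation of each gene shown, detected members of that list (rows), from its own mean over the mice (columns, grouped by diet), in log2 units, with missing values in grey. The dark cell of Cacna1a in control 3 (5.88) and the blue cells of Cacna1g in early life 1 and 2 (8.62 and 8.38) stand out.

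Genes of related function outside the name rule were read from a list of 53 partners, which holds ATP-sensitive channel sulfonylurea subunits, HCN, TRPC and chloride channels, calcium stores, sodium channel anchors and calcium channel inhibitors of the RGK family. Of these 45 were detected, and 0 passed in any comparison by limma. Between early life and control 8 of them had an unadjusted p under 0.05 (5 higher and 3 lower in early life), between peripubertal and control 2 (both higher) and between early life and peripubertal 15 (7 higher and 8 lower in early life). Over all genes tested the shares were 16.2%, 4.69% and 19.3% in the same order. The first comparison and the last tested 44 of the 45 genes. Fgf12, an intracellular factor that binds sodium channels, differed by -1.23 (SE 0.40, adjusted p = 0.21) and -1.61 (SE 0.40, adjusted p = 0.114) for early life against control and peripubertal. Control 3 was low in Fgf12 too (9.19, against 10.32 to 10.81 in the other controls), so leaving it out was bound to widen the difference from control. Among the partners only Fgf12 was refitted without control 3, and calls over all genes in that refit are not given here. Without that mouse both differences passed in limma (-1.62 and -1.61, adjusted p = 0.0175 and 0.0145). The second uses no control mouse and did not move, so there only the shared estimate of spread changed. Gem, an RGK protein that blocks calcium channels at the surface, differed by 1.48 (SE 0.46, adjusted p = 0.191) and 1.81 (SE 0.46, adjusted p = 0.115). The intracellular calcium release channel Ryr2 differed by 0.66 (SE 0.21, adjusted p = 0.193) and 0.59 (SE 0.21, adjusted p = 0.174).

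Of 8 neuron markers 7 were detected (Gad1 was not). The 5 with a value in every mouse, which leaves out Syt1 and Rbfox3, had a summed level of 14.30 to 14.83 in control, 14.68 to 15.11 in early life and 14.00 to 14.62 in peripubertal mice. Snap25 alone read 14.15 to 14.72, 14.46 to 14.98 and 13.81 to 14.53 in the same order. This sum therefore mostly follows the Snap25 probe and is no measure of neuron content. At an unadjusted p under 0.05, 3 of 7 were higher in early life than in peripubertal mice, against 10.6% of all genes, and 2 of 7 (Stmn2 and Nefl) were higher than in control, against 8.66%. Of 4 red cell markers 3 were on the array and detected, and the 2 with a value in every mouse, Alas2 and Hba-a1, summed to 14.68 to 16.96, 14.05 to 15.79 and 16.04 to 17.49 in control, early life and peripubertal mice. That sum mostly follows Hba-a1, which alone read 14.66 to 16.93, 14.03 to 15.76 and 16.02 to 17.46. At an unadjusted p under 0.05 in limma, 2 of 3 red cell markers (Hba-a1 and Alas2) were lower in early life than in peripubertal mice, against 8.77% of all genes. For early life against control 1 of 3 (Alas2) was lower, against 7.5%. Myelin and glia markers were all detected, and the 3 of 5 with a value in every mouse summed to 9.17 to 9.92, 9.24 to 10.06 and 9.34 to 9.72. No marker of these lists passed the adjusted test, and their part in the channel values was not tested.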

How the data were processed

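Pituitary RNA of 12 mice was measured on 6 2-colour Agilent arrays. The authors deposited scanner files, per the file headers, whose spot and background intensity were read by the scanner software named in the headers, Feature Extraction 11.0.1.1 of Agilent, with marks for outlier spots and for spots well above background, and a processed intensity. The deposited value table gives log2 values, whose making is not given in the sources used here. Its 8 deficient columns equal scanned channels filed under the other deficient group within 0.0001, and its 4 control columns matched no scanned channel and were not used.

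In limma 3.58.1 (R 4.3.3) normexp (offset 50) corrected the background, and dye bias was removed by loess and array distributions by Aquantile. Outlier spots were then removed for both mice of an array, which left 13 of the 95 channel genes with fewer than 12 samples. Control spots, 1377 of 44397 features, were left out. Of 39429 probes, 24605 reached 4 of 12 channels well above background, and the brightest probe stood for its gene (19091 genes). A probe counted as well above background where at least as many of its spots were so marked as were not. Group and dye were fixed terms and array a random block (correlation 0.342, 8 residual and 3.38 prior degrees of freedom), with two-sided tests and Benjamini-Hochberg adjustment over all genes at a threshold of 0.05. Where a group had no sample well above background, each of its samples below the lowest probe value well above background in its channel was raised to that value. The fold is then a bound, and samples above that value kept their measured level.

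The members, gene lists and tests were chosen with earlier results of these data known. Genes were named where they passed the threshold, were among the 5 members of smallest p in a comparison, stood on the list of 47 channels of excitable endocrine cells or lay at the edge of detection, and some of these genes are not reported here. Others were picked after their values were seen, either for an unadjusted p under 0.05 or for values set apart on 1 array. The labels call the 4 mice of a group biological replicates, and their number limits the precision. The steps were tested on simulated data. Alternatives were other background corrections, scalings, filters, blocks and probe rules, the value table, and the removal of each mouse in turn.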

Additional observations from a re-analysis of the deposited data

Results flagged for a closer look

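In 6 of 120 gene and group combinations tested (5%, over 44 channel genes), a single mouse lay farther from the rest of its group than Dixon's test allows at the 95% level. Chance alone marks about 1 in 20 groups, so the number of such cases is near that share. Both calcium channel pores among them were low in 1 mouse. Cacna1a, the P/Q-type pore, read 5.88 (log2 level) in control 3 where the other controls read 10.83 to 11.41. That was the lowest level of any probe marked well above background in control 3. Cacna1d, the L-type pore of pacemaking endocrine cells, read 8.41 in peripubertal 1 where the rest of the group read 9.95 to 10.10.

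The other cases were potassium channels and were smaller in size. Kcnh2, the ERG1 channel, read 9.52 in control 3 against 8.99 to 9.08 in the other controls. Kcnk1, the two-pore channel TWIK-1, read 11.32 in control 1 against 11.88 to 11.93. Kcnmb2, the inactivating beta subunit of the large-conductance channel, read 7.79 in early life 3 against 8.36 to 8.45. Kcnn2, the small-conductance channel SK2, read 10.23 in early life 1 against 10.53 to 10.54.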

How the results depend on the processing

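The value table enters here with its columns placed under the scanner files' names, and under its own filing every early life against peripubertal difference has the opposite sign. With that placing, over 15 differences of named genes and all settings, 351 values kept their direction and their side of an adjusted p of 0.05 in limma, 35 kept their direction and passed, and 0 reversed. The count of channel genes past that threshold, 0 in each comparison, moved in some settings. Without the array block it was 3 between early life and control and 14 between early life and peripubertal mice (all genes 605 and 1323 against 18 and 24), and with array means it was 1 in each, Kcne2. The authors' value table gave 2 for early life against peripubertal, Cacna1g and Scn11a. Of the settings chosen after seeing the data, removal of outlier spots before scaling gave 20 (18 higher) and 4, and leaving out the array of controls 3 and 4 gave 1 (Kcnv2) and 2 (Cacna1g and Scn11a). With 1 mouse left out the count ran from 0 to 4 for early life against control, from 0 to 0 between peripubertal and control, and from 0 to 12 for early life against peripubertal. Calls over all genes are given here only for the fit without the array block. The other counts are not set against such calls here, so they do not tell a trait of channel genes from a general rise in calls. The median channel difference for early life against control, 0.11, was 0.36 under median centring (all genes 0.36), 0.04 with no filter on dim probes, 0.03 with all probes of a gene averaged and 0.36 with outlier spots removed before scaling (all genes 0.31). For peripubertal against control, -0.08 became 0.10 (all genes 0.24) under median centring and 0.06 (all genes 0.13) with outlier spots removed before scaling, below the median of all genes both times. For early life against peripubertal, 0.15 became 0.21 with processed signals, 0.25 under median centring (all genes 0.15), 0.08 with no filter and 0.30 with outlier spots removed before scaling (all genes 0.19). With 1 mouse left out these medians ran from 0.01 to 0.12, from -0.08 to -0.01 and from 0.09 to 0.20. Scalings turned the sign of small differences such as Kcnip4 in peripubertal against control (-0.31, from -0.37 to 0.01), Cacna2d1 (-0.23, from -0.23 to 0.10) and Kcnh2 (-0.22, from -0.26 to 0.03) in the same comparison. Cacna1a for early life against control ran from -0.99 to 0.94. Of 134 channel genes 63 were detected where all 12 channels were asked for, against 95. Same-numbered mice of different groups did not deviate together (r from -0.29 to 0.06). These correlations showed no sign of pairing by number, but with 4 mice a group they cannot settle it. With the replicate number as a block 0 channel genes passed in each comparison in limma. In that fit 23, 7 and 28 had an unadjusted p under 0.05, and the medians were 0.11, -0.08 and 0.15. Dim signals limit the 39 genes detected in fewer than 4 channels, for which no difference was tested. The cause of the changes between settings was not tested.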
